A study of Mus musculus with 39 samples.

Results

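The genes described here are 10 genes of alternative macrophage activation and arginine metabolism, measured in stromal vascular cells (SVCs) of mouse brown fat. They are Arg1, Arg2, Nos2, Retnla, Chi3l3, Mgl2, Clec10a, Il4ra, Il10 and Stat6, chosen by gene symbol out of 29411 symbols on the array. Of these, 9 were found under the gene symbol of the deposited table, and Clec10a was found through its transcript because the array lists it under its older name Mgl1. The 10 genes were read by 13 of 40628 probes, and the brightest probe of a gene was used unless another is named.

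C57BL/6J mice were weaned at 3 to 4 weeks of age and put on 1 of 5 diets. LFC was the low fat control diet with 10% of calories from fat, and HFC was a high fat diet with added sucrose and 60% of calories from fat. HF5, HF20 and HF75 were the same high fat diet with 5, 20 or 75 µg of KAL-1, a plant formulation given in water, so the mice of the dosed groups ate the HFC diet as well. RNA was hybridised to 39 Agilent arrays of 1 colour, of which 10 were LFC, 11 HFC and 6 each HF5, HF20 and HF75. LFC and HFC were sampled at Day 1, 6, 10 and 14 and at Week 0, 3, 9, 12, 15 and 18, HFC also at Week 6, and the dosed groups at Week 3, 6, 9, 12, 15 and 18, with weeks counted from Day 14. Every diet and time label had 1 array, so the time labels served as the replicates of a diet, and the labels do not say how many mice an array holds. The sex of the mice is not given in the sources used here.

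Macrophages that meet interleukin 4 (IL-4) or interleukin 13 enter a state called alternative activation. The receptor chain Il4ra passes the signal to the transcription factor Stat6, which turns on a set of effector genes. Among these in the mouse are Arg1, the arginase that turns arginine into ornithine and urea, Retnla (also named RELMα or Fizz1, a secreted resistin-like protein), Chi3l3 (Ym1, now named Chil3, a secreted chitinase-like lectin) and the galactose-type lectins Mgl2 and Clec10a. Arg2 is the mitochondrial arginase, and Il10 is a cytokine that restrains inflammation. Nos2, the inducible nitric oxide synthase, uses the same arginine to make nitric oxide and is the usual mark of macrophages activated by interferon gamma and bacterial products. In adipose tissue, alternative activation is known as the state of resident macrophages in lean animals.

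A value below is log2 of the background-subtracted signal minus the 75th percentile of its array, so 0 is the signal that 75% of the probes of the array did not exceed. Levels of different probes are not compared, since a brighter probe need not mean more RNA. The labels call the cells infiltrating macrophages. The macrophage genes Emr1, Cd68, Csf1r, Fcgr1, Cd14 and C1qb were well above background on 39 of 39 arrays and Itgam on 28, and the adipocyte genes Adipoq, Fabp4, Plin1, Ucp1 and Cidea were so on 39 as well. The arrays therefore read a mixed population, and fewer cells of a type cannot be told apart from less RNA per cell. The 75th percentile ranged from 18.1 to 3974 intensity units with a median of 129.9, and the share of probes well above background ranged from 31.2 to 98.0% with a median of 57.3%. On 3 arrays over 10% of spots were marked as outliers by the scanner software (HF20 Week 15, HF5 Week 12 and HFC Week 12). The HF20 Week 15 array, with 71.4% of spots marked, gave a value for Retnla, Chi3l3 and Clec10a only. The percentile of an array includes its marked spots, so these 3 values are relative to a percentile taken mostly over marked spots.

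Arrays of 2 kinds stood apart from the rest. The first kind were the LFC Day 10 and HFC Week 12 arrays, on which the brown adipocyte genes were low. The log2 of their summed level was 3.21 and 1.51 on these, against at least 6.62 on the others, and Ucp1, the uncoupling protein of brown fat, was at -3.16 and -3.18 against a lowest value of 1.48 elsewhere. The second kind were 9 arrays whose titles hold the token BA or BAT, which the labels do not explain. They were HFC Day 1, LFC Day 6, HF5 and HFC Week 9, LFC and HF20 Week 12, HF5 and HF75 Week 15 and LFC Week 18. Most of the other titles hold B-A or B_A, so the token BA differs from these only by a separator. The labels do not say whether this split marks a kind of sample. The HFC minus LFC means are given with and without the Day 10 and Week 12 pairs and over the pairs without a BA or BAT title. At Day 1, Day 6, Week 3 and Week 9 the HFC and LFC arrays were scanned on different dates. Over the 6 pairs of 1 scan date, which include Day 10 and Week 12, Arg1 averaged 2.51, Arg2 2.29, Nos2 0.28 and Retnla 1.37. Chi3l3 averaged 1.72, Mgl2 0.87, Clec10a 1.04, Il4ra 0.65, Il10 2.02 and Stat6 -0.15 over the same pairs. The labels also disagree in places. The LFC Day 1 array has LFB in its title. The HF20 Week 12 array has a diet label of high fat alone, and the deposited table runs opposite to the scanner files at Day 14 (r = -0.995 across probes), as if LFC and HFC were exchanged there. The same comparison gave r = 0.831 for the HFC Week 12 array. The other arrays compared had r of at least 0.994, apart from the sign at Day 14. The cause of the lower r was not tested.

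On the mouse build GRCm38.p6, Il10 lies at chr1:131019845-131024970, Chi3l3 at chr3:106147554-106167564, Il4ra at chr7:125552271-125579474, Arg1 at chr10:24915207-24927470 and Stat6 at chr10:127642955-127660987. Mgl2 (chr11:70130125-70137542) and Clec10a (chr11:70166623-70170836) are neighbours on chromosome 11, which also holds Nos2 (chr11:78920787-78960226). Arg2 lies at chr12:79130788-79156301 and Retnla at chr16:48842609-48844461.

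The probes of the arginine enzymes are shown because Arg1 and Arg2 are related enzymes and because the contrast of Arg1 with Nos2 rests on these 60-base oligonucleotides. They are printed 5′ to 3′ as deposited, and no letters are in capitals since no part of a probe is singled out.
Arg1: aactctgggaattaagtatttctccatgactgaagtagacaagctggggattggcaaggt
Arg2: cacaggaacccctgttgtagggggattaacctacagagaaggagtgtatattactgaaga
Nos2: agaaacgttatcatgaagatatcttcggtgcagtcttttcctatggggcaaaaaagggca
The longest run of bases that the Arg1 and Arg2 probes share is 7, while the probes of the neighbouring lectins share a run of at most 8 bases, and those of Chi3l3 and its close relative Chi3l4 one of 6. Only probes were compared with each other, and no probe was searched against a transcript. The 2 Retnla probes overlap by 50 of 60 bases and followed each other over the 39 arrays with r = 0.887.

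Stat6 binds the palindrome TTCNNNNGAA and, as other STAT proteins do, TTCNNNGAA. RefSeq promoter entries (GRCm38.p6) were found for 5 of the 10 genes. Both forms were searched over the 250 bases before the start that each entry gives, on both strands since each reads the same on either. The start of the entry is the gene's own for Retnla, Chi3l3 and Il4ra but lies 31 bases into the gene for Stat6 and 232 bases into it for Mgl2, so for Mgl2 the window lies mostly inside the gene. Of these, Retnla and Chi3l3 (as Chil3) each held 1 match, and Il4ra, Mgl2 and Stat6 held none. The stretches around the matches are printed because no other member with an entry held a match, with the match in capitals.
Retnla, chr16:48842434-48842503, plus strand: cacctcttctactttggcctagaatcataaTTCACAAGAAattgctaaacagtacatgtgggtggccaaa
Chil3, chr3:106167698-106167766, minus strand: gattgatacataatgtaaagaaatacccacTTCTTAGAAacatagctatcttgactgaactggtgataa
The Retnla match begins 145 bases before the start and the Chil3 match 172 bases before it. Of 32851 promoter entries, 5.85% hold the form with 4 free bases, 7.02% the form with 3, and 12.4% either. A match is a description of the letters in this window and not a mapped binding site.

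How far each gene could be followed was set by its signal. Retnla, Chi3l3, Mgl2, Clec10a, Il4ra and Stat6 were well above background on 39 of 39 arrays. Arg2 was well above background on 20, Il10 on 16, Arg1 on 10 and Nos2 on 5. All values of Arg1 (29 arrays), Arg2 (19) and Nos2 (34) that were not well above background lay below the dimmest probe of their array that was, and so did 22 of 23 values of Il10. These values are not levels. The upper bound for such a gene is the higher of its value and the level of that dimmest probe. Nos2 did not reach the 6 arrays needed to enter the test across probes.

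**Figure D1:**
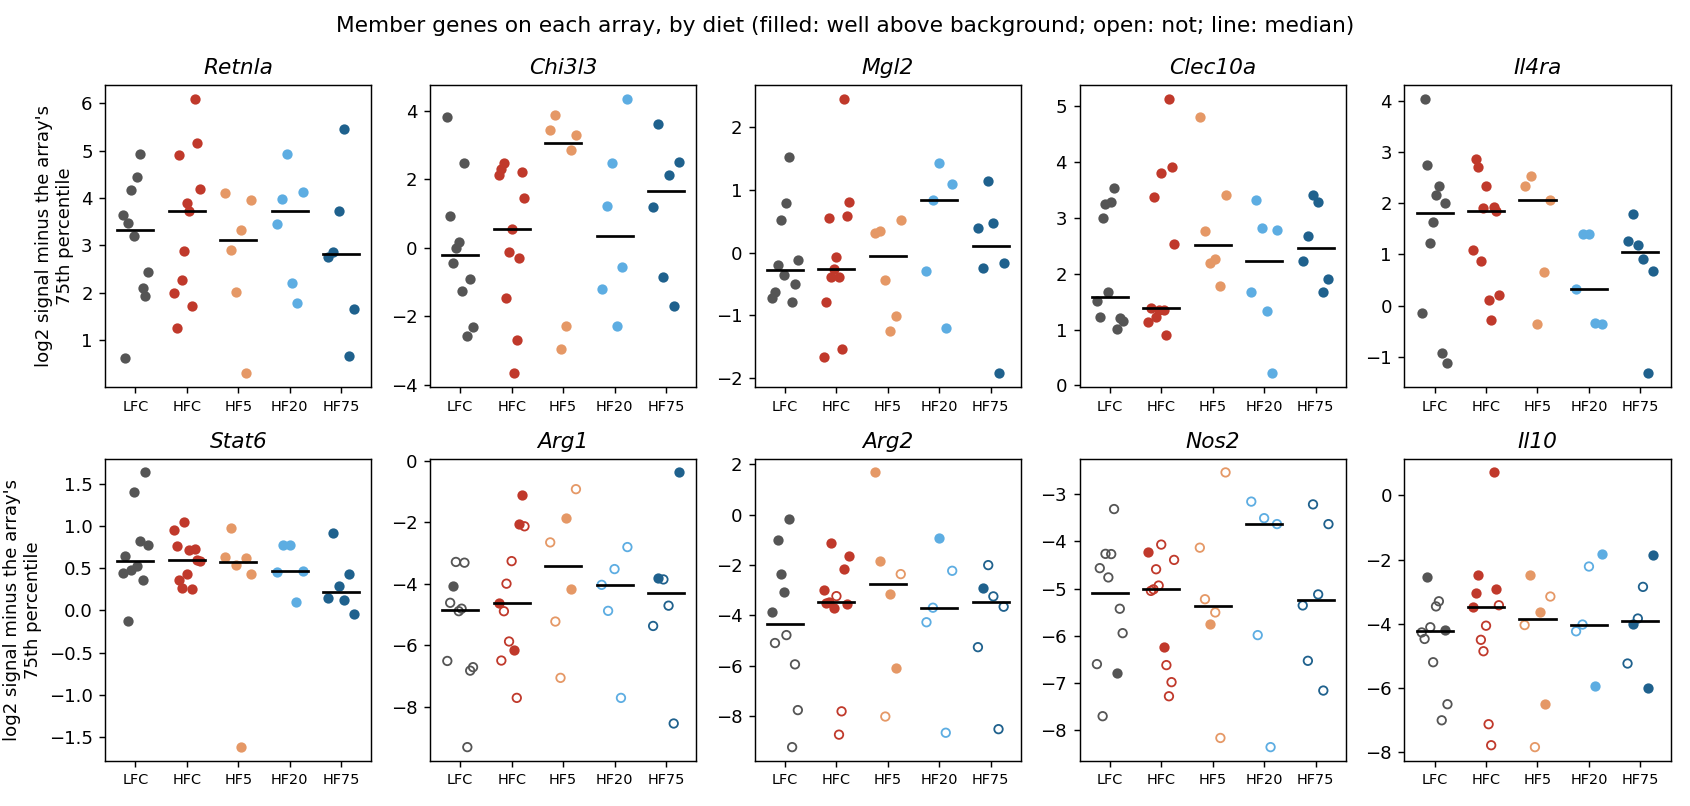
Level of each of the 10 genes on every array, as log2 signal minus the 75th percentile of the array (y axis), by diet (x axis). Points are arrays, filled where the probe was well above background and open where it was not, and the horizontal lines are medians. The diets overlapped for every gene, and Arg1, Arg2, Il10 and Nos2 are mostly open points.

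Arg1 was the member with the sparsest signal after Nos2. In LFC it ranged from -9.31 to -3.29 with a median of -4.85, and the LFC Day 10 array at -4.06 was the only one of 10 well above background. In HFC it ranged from -7.71 to -1.11 with a median of -4.62, and was well above background at Day 1 (-4.62), Week 6 (-6.14), Week 12 (-2.04) and Week 15 (-1.11). In the dosed groups the arrays well above background were HF5 Week 12 (-1.87) and Week 15 (-4.17), HF75 Week 6 (-3.80) and Week 18 (-0.37), and HF20 Week 15, whose value was dropped. The diets overlapped over most of their range. The highest Arg1 value of all arrays was the HF75 Week 18 value, and the 3 highest values of the LFC and HFC arrays were HFC Week 12, Week 15 and Week 18.

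Nos2 stayed at the bottom of the array under every diet. It ranged from -7.70 to -3.32 in LFC (median -5.09), from -7.28 to -4.07 in HFC (median -5.02), from -8.16 to -2.54 in HF5 (median -5.36), from -8.36 to -3.16 in HF20 (n = 5, median -3.63) and from -7.16 to -3.22 in HF75 (median -5.24). It was well above background on HFC Day 1 (-4.22), LFC Week 12 (-6.78), HFC Week 6 (-6.24), HF5 Week 9 (-5.76) and HF20 Week 15, the last without a value. Its highest value, -2.54 on HF5 Week 18, was on the array with the highest detection floor, the level of the dimmest probe well above background (-0.83), and lay below that floor.

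Arg1 and Nos2 were contrasted through their changes, not their levels. The HFC minus LFC change in Arg1 exceeded that in Nos2 at Week 3, 12, 15 and 18 and at none of the other 6 labels. HFC minus LFC in Arg1 was 7.27 at Week 12, 5.71 at Week 15 and 4.58 at Week 18, while Nos2 changed by -0.50, -1.55 and 1.55 at the same labels. At Week 12 the LFC array gave only a bound, so Arg1 was at least 31.0-fold higher in HFC, and at Week 15 at least 10.5-fold higher. At Week 18 neither array was well above background, and no fold is given. At the other labels Arg1 moved from -4.40 at Week 9 to 1.89 at Day 1, and it was higher in HFC at 5 of 10 labels with a mean difference of 1.22 ± 3.69 (SD, n = 10), which was 0.72 without Day 10 and Week 12 and 0.95 over the 5 pairs without a BA or BAT title. Nos2 was higher in HFC at 4 of 10 labels with a mean of 0.05 ± 1.80 (SD, n = 10), and -0.21 and 0.17 in the same subsets.

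Both late Arg1 differences stood against a background of many moved probes. At Week 12, 27.2% of the 33750 probes well above background on either array were at least 4-fold higher in HFC. At Week 15 the share was 8.91% of 27745. Both shares are counted at 4-fold, a lower bar than the Arg1 bounds, so they do not say how rare differences of the Arg1 size were. The Week 12 pair sets an LFC array titled BA or BAT against the HFC array low in brown adipocyte genes. The Week 15 pair has neither kind of array and shares a scan date, so the Week 15 difference is the one that rests on neither.

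The change in Arg1 minus the change in Nos2 averaged 1.17 ± 3.76 (SD, n = 10 labels) for HFC minus LFC and was positive at 4 labels, which were Week 3 (1.35), Week 12 (7.77), Week 15 (7.26) and Week 18 (3.03). The mean was smaller than its SD. It was 0.44 without Week 12 and 0.50 without Week 15, and 0.78 over the 5 labels where neither array was titled BA or BAT. Against HFC the dosed diets averaged -0.63 ± 0.97 in HF5 (SD, n = 6, positive at 1 label), -1.13 ± 2.34 in HF20 (SD, n = 5, positive at 2) and -1.47 ± 3.78 in HF75 (SD, n = 6, positive at 3). All 3 compare with the same HFC arrays. Without Week 12 the HF20 mean was -0.26, and without Week 15 the HF75 mean was -0.32. At no label were both probes well above background on both arrays, so the means describe changes that are in part those of the floor.

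**Figure D2:**
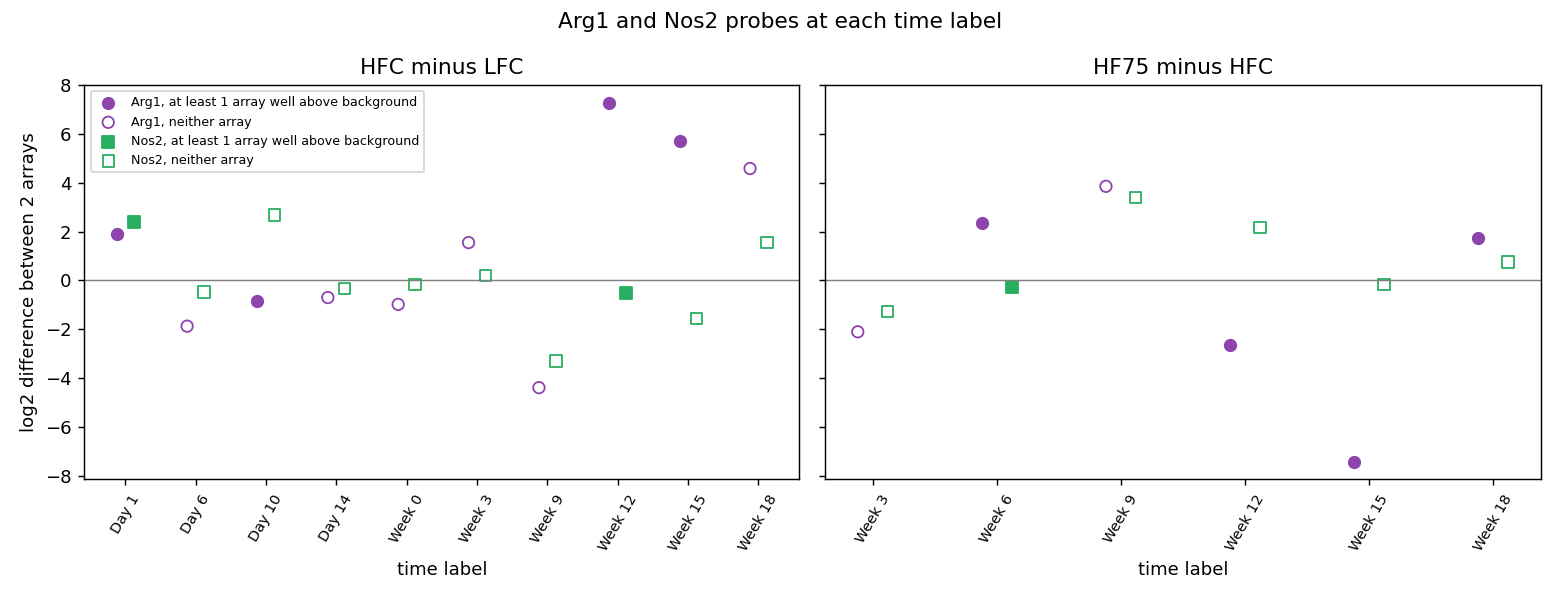
Change in Arg1 and in Nos2 at each time label, for HFC minus LFC (left) and HF75 minus HFC (right), in log2 units. Points are differences between 2 arrays, filled where at least 1 of them was well above background. For HFC minus LFC the Arg1 change was computed as 7.27 at Week 12. The LFC array there was not well above background, so the change is bounded as at least 4.96. The Nos2 change at Week 12 was computed as -0.50, with the HFC array not well above background.

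Retnla was bright and varied among arrays of 1 diet about as much as over all of them. It ranged from 0.63 to 4.93 in LFC (median 3.33) and from 1.27 to 6.09 in HFC (median 3.72). In HF5 it ranged from 0.30 to 4.10 (median 3.12), in HF20 from 1.78 to 4.94 (median 3.72) and in HF75 from 0.67 to 5.46 (median 2.81). The 5 ranges overlapped, and the medians differed by less than the SD within any diet, which was 1.21 to 1.65. The highest value was on HFC Week 12 and the lowest on HF5 Week 15. The HFC Week 12 spot was saturated, so that value is a lower bound.

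Over time the HFC minus LFC difference in Retnla changed sign. It was at least 4.00 at Week 12, where the HFC spot was saturated, 3.21 at Week 15 and 1.76 at Week 18, but -3.21 at Week 9, -1.63 at Day 1 and -1.90 at Day 14. It was higher in HFC at 5 of 10 labels with a mean of 0.35 ± 2.30 (SD, n = 10), and at 3 of 8 with a mean of -0.25 ± 2.08 when Day 10 and Week 12 were left out. Over the 5 pairs without a BA or BAT title the mean was 0.38. The second Retnla probe, not saturated, differed by 4.31 at Week 12, 3.45 at Week 15 and 4.27 at Week 18. At each of the 5 labels where 1 array of the pair was titled BA or BAT, that array was the lower one in Retnla. At Week 15, where neither was, LFC was at 1.94 and HFC at 5.16.

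Clec10a and Mgl2, the lectin receptors of macrophages and dendritic cells, were higher in HFC at Week 12, 15 and 18 and lower at Week 9, as Retnla was. At Week 3 Clec10a differed by 0.53, Retnla by -0.54 and Mgl2 by -0.86. Clec10a ranged from 1.01 to 3.53 in LFC (median 1.59), from 0.90 to 5.13 in HFC (median 1.39), from 1.79 to 4.81 in HF5 (median 2.51), from 0.22 to 3.32 in HF20 (median 2.22) and from 1.68 to 3.40 in HF75 (median 2.45). Its HFC minus LFC difference was 4.12 at Week 12, 2.70 at Week 15, 1.37 at Week 18 and -2.64 at Week 9. The mean over labels was 0.39 ± 2.01 (SD, n = 10). Without Day 10 and Week 12 its sign turned, with a mean of -0.073 ± 1.72 (SD, n = 8) and 4 of 8 labels higher, and over the 5 pairs without a BA or BAT title it was 0.26. Mgl2 ranged from -0.80 to 1.52 in LFC (median -0.27), from -1.67 to 2.46 in HFC (median -0.26), from -1.25 to 0.52 in HF5 (median -0.06), from -1.21 to 1.43 in HF20 (n = 5, median 0.83) and from -1.93 to 1.14 in HF75 (median 0.11). It differed by 3.25 at Week 12, 1.08 at Week 15, 0.94 at Week 18 and -3.06 at Week 9, with a mean of 0.018 ± 1.67 (SD, n = 10), which was -0.48 without Day 10 and Week 12 and 0.030 over the 5 pairs without such a title. The HFC Week 12 array held the highest value of Mgl2, Clec10a, Retnla and Il10, and with the LFC Day 10 array left out as well the highest values were 1.52, 4.81, 5.46 and -1.82.

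The lectins followed each other and Retnla across arrays, all values being relative to the percentile of the same array. Of the 10 relations computed, 4 set a gene against the array's floor and are not given, since both sides hold the same percentile over near-background signal. A scan date held at most 5 arrays, too few for these relations within a date. For r without 2 arrays, the 2 arrays farthest from the median of the first-named variable were left out. They were picked anew for each relation and are not a fixed pair. Over the arrays without BA or BAT in the title, Retnla and Mgl2 gave r = 0.722 (n = 29, permutation p = 2e-05, adjusted over 10 relations 6.67e-05, rho = 0.752, adjusted 5e-05, r without 2 arrays 0.617). Mgl2 and Clec10a gave r = 0.709 (n = 29, permutation p = 5e-05, adjusted 0.000125, rho = 0.735, adjusted 5e-05, r without 2 arrays 0.654). Retnla and Arg1 gave r = 0.321 (n = 29, permutation p = 0.0885, adjusted 0.111, rho = 0.383, adjusted 0.0504), and r fell to 0.161 without 2 arrays. Retnla and Chi3l3 did not move together beyond the spread (r = 0.134, n = 30, permutation p = 0.474, adjusted 0.527, rho = 0.159, r without 2 arrays 0.271), although both are used as marks of the same activation state. The summed macrophage genes gave r = 0.512 with Mgl2 (n = 28, permutation p = 0.00638, adjusted 0.0111, rho = 0.443, adjusted 0.029, r without 2 arrays 0.432).

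Chi3l3 had the widest range of the 6 genes seen on all arrays, from -3.66 on HFC Week 6 to 4.35 on HF20 Week 18, a 259-fold span. It ranged from -2.58 to 3.83 in LFC (median -0.22), from -3.66 to 2.47 in HFC (median 0.56), from -2.95 to 3.87 in HF5 (median 3.07), from -2.28 to 4.35 in HF20 (median 0.33) and from -1.68 to 3.63 in HF75 (median 1.66). The median of HF5 was above that of HFC, but each range covered most of the others. HFC minus LFC was positive at 6 of 10 labels, from -5.17 at Week 9 to 3.78 at Week 18, with a mean of 0.67 ± 2.79 (SD, n = 10), which was 0.18 without Day 10 and Week 12 and 1.22 over the 5 pairs without a BA or BAT title. Chi3l3 moved with the neutrophil genes. The 9 of 11 listed neutrophil genes on the array, among them S100a8, S100a9 and Ly6g, gave r = 0.799 with Chi3l3 over the arrays without BA or BAT in the title (n = 29, permutation p = 1e-05, the smallest possible, adjusted 5e-05, rho = 0.752, adjusted 5e-05, r without 2 arrays 0.719). Ym1 protein is known from neutrophils and their precursors as well as from macrophages. The part of neutrophil RNA in the Chi3l3 values was not tested.

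**Figure D3:**
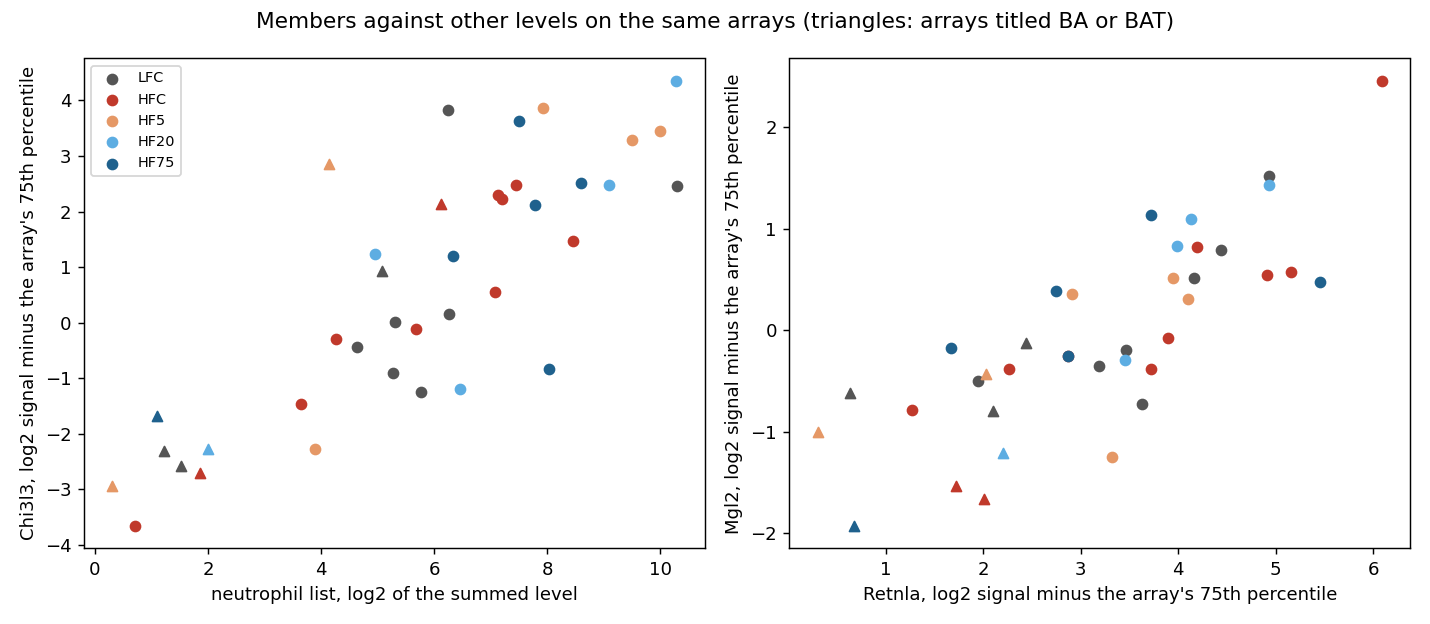
Left, Chi3l3 against the log2 of the summed level of 9 neutrophil genes. Right, Mgl2 against Retnla, both axes as log2 signal minus the 75th percentile of the array. Points are arrays coloured by diet, and triangles are arrays titled BA or BAT. Over the round points r was 0.799 on the left and 0.722 on the right.

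Il4ra and Stat6 receive and carry the IL-4 signal. Stat6 had an SD of 0.51 in LFC, 0.26 in HFC, 0.94 in HF5, 0.28 in HF20 and 0.34 in HF75, and diet medians from 0.22 to 0.60. Its HFC minus LFC difference averaged -0.10 ± 0.49 (SD, n = 10), or -0.23 without Day 10 and Week 12, and lay between -1.04 at Week 15 and 0.50 at Day 1. Stat6 was the member with the smallest spread between labels. Il4ra ranged from -1.12 to 4.04 in LFC (median 1.82), from -0.28 to 2.86 in HFC (median 1.85), from -0.35 to 2.54 in HF5 (n = 5, median 2.06), from -0.37 to 1.40 in HF20 (n = 5, median 0.31) and from -1.32 to 1.78 in HF75 (median 1.04). HFC minus LFC averaged 0.15 ± 1.48 (SD, n = 10), higher at 5 of 10 labels, and its sign turned without Day 10 and Week 12 (-0.16) and over the 5 pairs without a BA or BAT title (-0.019).

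Il10 and Arg2 were seen on some arrays of each diet. Il10 was well above background on 2 of 10 LFC, 5 of 11 HFC and 3 of 6 arrays of each dose. It ranged from -7.01 to -2.54 in LFC (median -4.23), from -7.79 to 0.72 in HFC (median -3.46), from -7.85 to -2.47 in HF5 (median -3.84), from -5.93 to -1.82 in HF20 (n = 5, median -4.02) and from -5.99 to -1.84 in HF75 (median -3.93). At Week 12 it was at least 209.7-fold higher in HFC than in LFC (0.72 against a value of -7.01 not well above background), on the pair that holds both kinds of array that stand apart. At Week 15, where both arrays were well above background, HFC was 1.28 higher. Over labels Il10 averaged 0.93 ± 3.09 (SD, n = 10), 0.18 without Day 10 and Week 12 and 0.14 over the 5 pairs without a BA or BAT title. Arg2 was well above background on 5 of 10 LFC, 8 of 11 HFC, 4 HF5, 2 HF20 and 1 HF75 array. It ranged from -9.23 to -0.16 in LFC (median -4.34), from -8.74 to -1.11 in HFC (median -3.47), from -8.02 to 1.68 in HF5 (median -2.75), from -8.66 to -0.92 in HF20 (n = 5, median -3.70) and from -8.52 to -2.01 in HF75 (median -3.45). The HFC minus LFC difference in Arg2 was positive at 7 of 10 labels with a mean of 1.01 ± 4.15 (SD, n = 10), which was 0.69 without Day 10 and Week 12 and 0.42 over the 5 pairs without a BA or BAT title. Arg2 was at least 28.8-fold higher in HFC at Week 12, 1.93-fold at Week 15 and 15.4-fold at Week 18, and at least 43.2-fold lower at Week 9. The array titled BA or BAT was the LFC one at Week 12 and Week 18 and the HFC one at Week 9, and neither array of Week 15 was titled so.

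**Figure D4:**
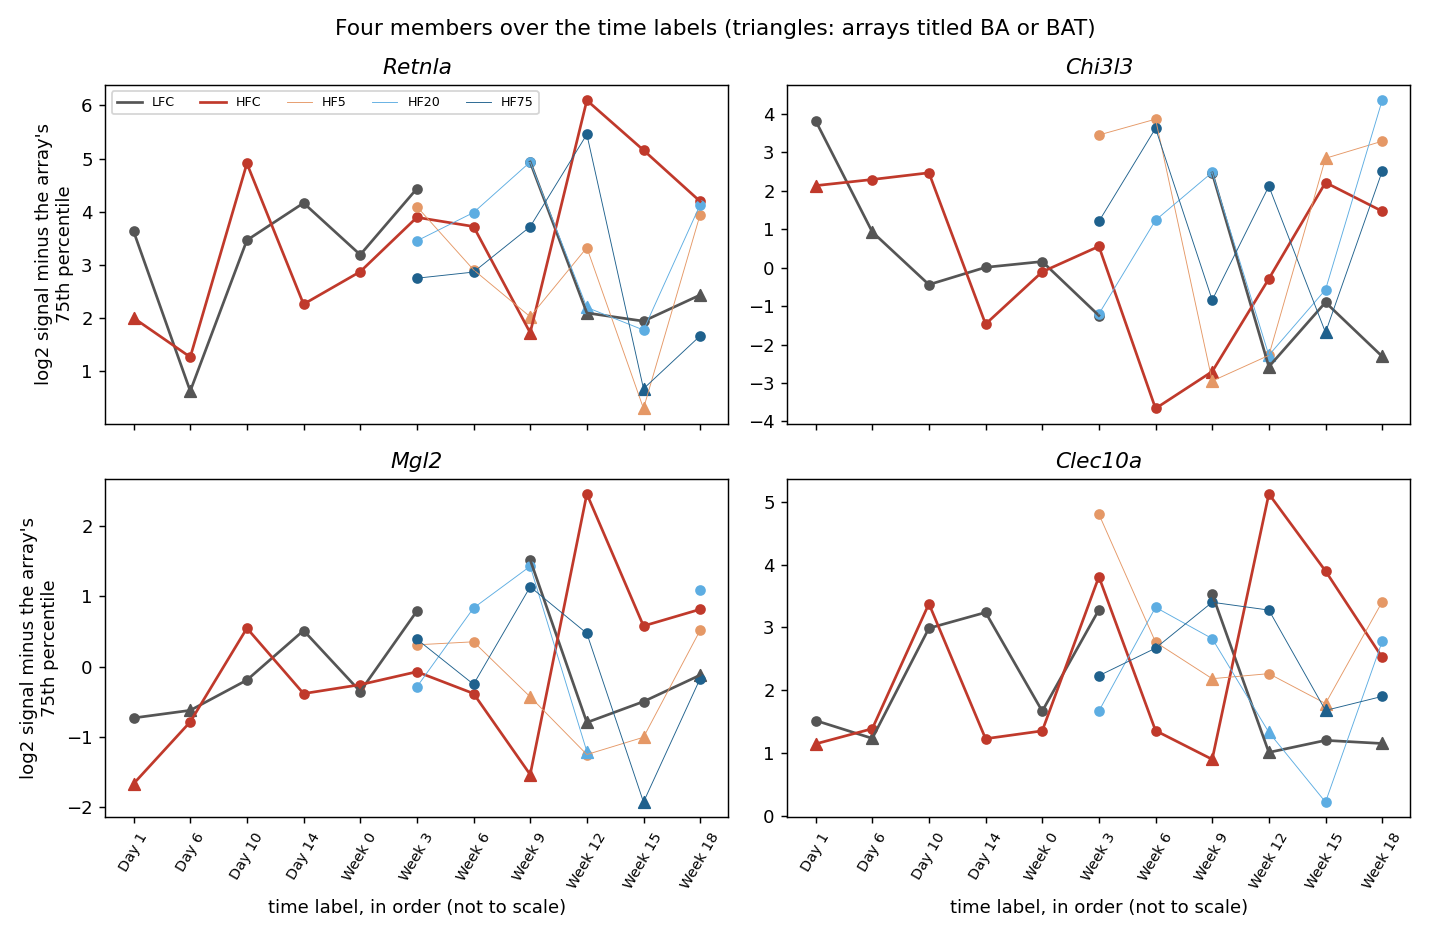
Levels of 4 of the genes over the time labels for LFC, HFC and the 3 dosed diets, as log2 signal minus the 75th percentile of the array (y axis). Each point is 1 array. In Retnla the HFC points lie above the LFC points at Week 12, Week 15 and Week 18 by at least 4.00 (the HFC spot was saturated), 3.21 and 1.76, and below at Week 9 by 3.21.

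Tested across all probes with diet and time label in the model, no gene was called between diets. Limma called 0 of the 9 genes tested in HFC against LFC at an adjusted p under 0.05, where it called 0% of 34043 probes, and 0 of 9 at an unadjusted p under 0.05, where 2.82% of probes (959) passed. The fitted differences of the 9 genes ran from -0.13 to 1.12 with a median of 0.29, beside a median of 0.05 over all probes. Arg1 had the largest, 1.12 (SE 0.93, limma adjusted p = 1), then Il10 with 0.66 (SE 0.84) and Arg2 with 0.63 (SE 1.18), the 3 tested genes with values near background. Retnla differed by 0.32 (SE 0.58), and by 1.17 (SE 0.62) on its second probe. Chi3l3 differed by 0.29 (SE 0.94), Clec10a by 0.26 (SE 0.51), Il4ra by 0.00 (SE 0.49), Mgl2 by -0.05 (SE 0.44) and Stat6 by -0.13 (SE 0.24). Nos2, fitted without the filter on dim probes, differed by 0.05 (SE 0.54). Without the LFC Day 10 and HFC Week 12 arrays Retnla gave -0.053 and Chi3l3 -0.25, and without Week 12 Arg1 gave 0.46.

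KAL-1 gave no called difference in any of the 9 genes at any dose. Limma called 0 of 9 in HF5, HF20 and HF75 against HFC, where it called 0% of the probes in each, and at an unadjusted p under 0.05 the count of the genes was also 0 in each, beside 1.46% of probes (498) in HF5, 2.66% (907) in HF20 and 3.55% (1210) in HF75. Chi3l3 had the largest fitted values, higher by 1.82 (SE 1.17) in HF5, 1.12 (SE 1.17) in HF20 and 1.61 (SE 1.17) in HF75. Retnla had values of the other sign, -1.08 (SE 0.72) in HF5, -0.44 (SE 0.72) in HF20 and -0.997 (SE 0.72) in HF75. The 3 comparisons share their HFC arrays. Along the rank of dose from HFC to HF75, limma called 0 of 9 genes and 0% of probes, and 0 of 9 at an unadjusted p under 0.05 beside 7.04% of probes (2395). The slope per dose step was -0.32 (SE 0.25) in Retnla, 0.40 (SE 0.39) in Chi3l3 and -0.31 (SE 0.35) in Arg1. The doses did not order either gene, since in Chi3l3 HF5 was the highest and in Retnla HF5 the lowest.

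Over time in LFC and HFC, limma called 0 of 9 genes and 0% of probes. At an unadjusted p under 0.05, 2 of 9 genes passed, beside 11.9% of probes (4057). Chi3l3 had a slope of -0.48 per doubling of days (SE 0.18, limma p = 0.0125, adjusted p = 0.3) and Mgl2 had a slope of 0.20 (SE 0.09, limma p = 0.0426, adjusted p = 0.404), neither past the threshold. Retnla had 0.19 (SE 0.14) and Arg1 0.07 (SE 0.20). The change in the diet effect from Day 1 to Week 0 against Week 3 to Week 18 was also not called for any gene (0 of 9, 0% of probes, and 0 of 9 at an unadjusted p under 0.05 beside 2.35% of probes or 800). Of the 9 genes, 8 had a larger HFC minus LFC difference late than early, beside 40.2% of all probes. Among the late pairs the array titled BA or BAT was the LFC one at Week 12 and Week 18 and the HFC one at Week 9. Among the early pairs it was the HFC one at Day 1 and the LFC one at Day 6. Arg1 had 3.45 (SE 1.87, limma p = 0.0931, adjusted p = 1), Clec10a 1.65 (SE 1.10), Retnla 1.40 (SE 1.30) and Nos2, without the filter, -1.54 (SE 1.01). The median over all probes was -0.19. Without the LFC Day 10 and HFC Week 12 arrays the Arg1 value was 2.28 (SE 2.02), and with near-background values raised to the floor it was 1.78.

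The titles separated the genes where the diets did not. With diet and time label in the model, 8 of the 9 genes tested were lower on the 9 arrays titled BA or BAT at an adjusted p under 0.05. Of all 34043 probes, 52.4% (17828) were called, 31.8% (10842) as lower and 20.5% (6986) as higher, and the count of the genes is to be read against these shares. Among the 6 genes well above background on all arrays, Chi3l3 fell by 2.46 (SE 0.82), Retnla by 2.15 (SE 0.41), Il4ra by 1.57 (SE 0.41), Mgl2 by 1.39 (SE 0.35) and Clec10a by 1.28 (SE 0.45), with limma adjusted p from 0.000317 in Retnla to 0.0185 in Clec10a. Stat6 differed by 0.04 (SE 0.24, adjusted p = 0.902), but its other probes gave -1.21 (adjusted p = 0.035) and -0.91 (adjusted p = 0.0517). For Arg2, Il10 and Arg1, which were also called, and for Nos2, no size is given. Only 2, 4, 2 and 3 of the 9 titled arrays read them well above background, and the floor below which nearly all of their other values lay was itself lower there, with a median of -6.06 against -3.01, so the calls cannot be told apart from the lower floor. The median of all probes was -0.30 here. It moved to -1.30 with normexp background correction, 0.23 with quantile normalization and -0.82 with the percentile taken over probes detected everywhere, and the share of calls that were lower moved from 60.8% to 72.7, 31.4 and 80.2%. The 5 genes kept the negative sign under these 3 settings, but Chi3l3 (-2.04, adjusted p = 0.0621) was not called after quantile normalization, nor Clec10a (-0.39, adjusted p = 0.41) and Il4ra (-0.77, adjusted p = 0.0507) after normexp. Of the 5, Retnla was called under every alternative run.

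Raw levels show the same separation with overlap. Retnla ranged from 0.30 to 2.44 on the titled arrays (median 2.004) and from 1.27 to 6.09 on the other 30 (median 3.72). Clec10a ranged from 0.90 to 2.18 (median 1.23) against 0.22 to 5.13 (median 2.77), and Mgl2 from -1.93 to -0.12 (median -1.01) against -1.25 to 2.46 (median 0.35). Stat6 had medians of 0.53 and 0.53. Within the 6 time labels that hold both kinds of title (24 arrays, 9 of them titled), Retnla and Clec10a were lower on the titled arrays at 6 of 6 labels, by 1.88 and 1.03 on average. Chi3l3 and Mgl2 were lower at 5 of 6, Il4ra at 4 and Stat6 at 3. At Day 1, Day 6 and Week 9 the titled arrays were scanned on another date than the rest. Title and scan date cannot be told apart at these labels, nor title and diet at Day 1 and Day 6. The titled arrays were brighter, with a median 75th percentile of 852 intensity units against 81.1, so a value near background lies further below the percentile on them.

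Several cell type lists moved with the titles as well. The summed neutrophil level had a median of 1.86 on the titled arrays and 7.08 on the others, with ranges of 0.31 to 6.12 and 0.71 to 10.3. The macrophage list (10 of 10 genes on the array) had medians of 3.36 and 4.45 with ranges of 2.44 to 4.07 and 3.37 to 6.40, the dendritic cell list 0.22 and 2.01, and the erythroid list 7.19 and 10.8. The general adipocyte list had 8.82 and 9.71 and the brown adipocyte list 8.38 and 8.37. The eosinophil list had -3.36 and -1.37, and its defining gene Epx was well above background on 4 of 39 arrays. The T cell and ILC2 list had -0.87 and 0.75, the mast cell list 1.44 and 1.71 and the liver list -3.39 and 0.076, and the skeletal muscle list went the other way with 6.75 and 4.86. The part of these cell types in the lower member values was not tested.

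**Figure D5:**
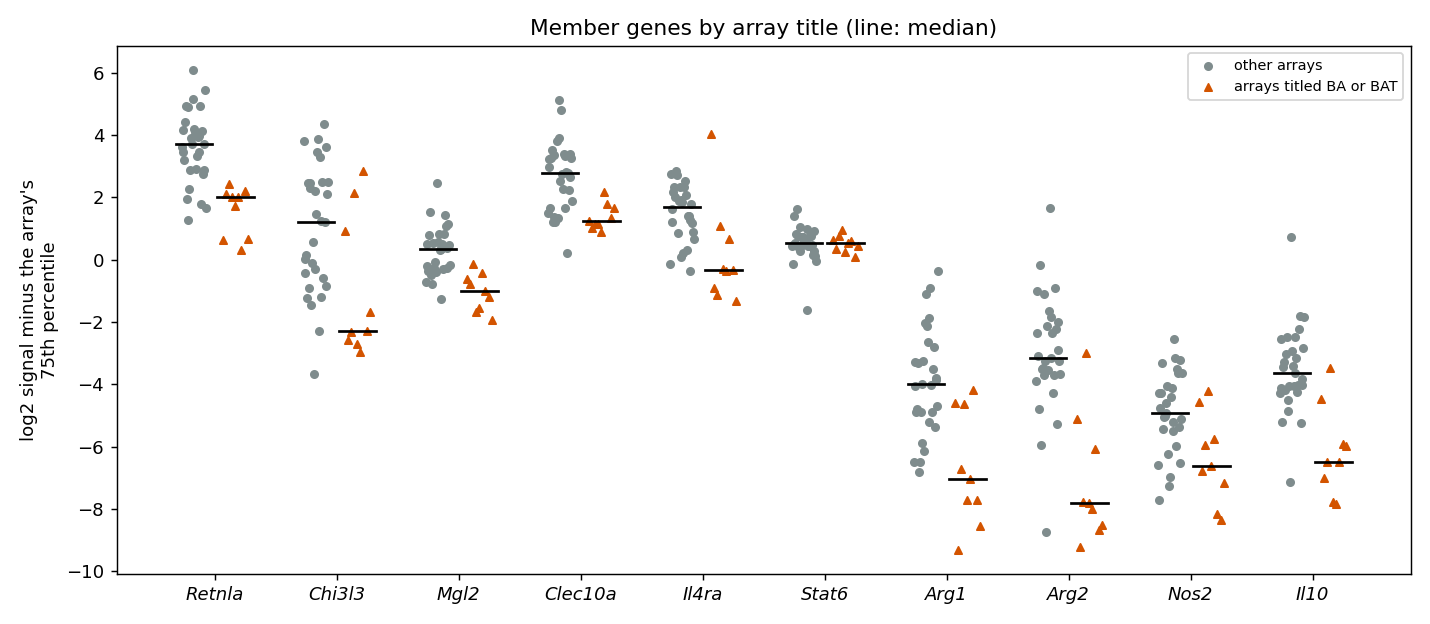
Level of each gene on the 9 arrays titled BA or BAT (triangles) and on the others (circles), as log2 signal minus the 75th percentile of the array (y axis). Lines are medians. In Retnla they are 2.004 and 3.72, and in Stat6 0.53 and 0.53.

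The rest of the IL-4 pathway was read from 31 genes, all on the array and 30 of them tested. In the 4 diet contrasts, the dose and time trends and the early against late comparison, 0 were called. The pair with the smallest p over these contrasts was Il2rg, the shared receptor chain, with -0.31 per doubling of days (limma p = 0.0024, adjusted p = 0.199), and Irf4, a transcription factor of alternative activation, with 1.20 in HFC against LFC (limma p = 0.00372, adjusted p = 1), neither past the threshold. On the titled arrays 16 of 30 were lower and 3 higher, beside 31.8% and 20.5% of all probes, with a median of -1.18 beside -0.30 over all probes. Those lower were Cdh1 (-4.17), Socs3 (-4.13), Chi3l4 (-2.93), Egr2, Il13ra1 (-2.78), Il4 (-2.66), Il10ra, Alox15, Socs1, Fn1, Ccl17, Ccl24, Klf4, Pdcd1lg2, Mrc1 (-1.21) and Il2rg. On a titled array 21 to 30 of the 31 genes were well above background, and on 29 other arrays 16 to 31. For genes near background, these calls and sizes cannot be told apart from the lower floor of the titled arrays. Those higher were Tyk2 (1.14), Pparg (1.69) and Ppargc1b (3.14), of which Pparg is the nuclear receptor of fat cell formation and Ppargc1b a coactivator of mitochondrial genes, both abundant in brown fat. Under normexp 17 were lower, beside 60.7% of all probes, after quantile normalization 14, beside 10.2%, and with the percentile over probes detected everywhere 20, beside 47.9%.

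Of the 24 genes that handle arginine and its products, 23 were tested and 0 were called by diet, dose or time. Nos3, the endothelial nitric oxide synthase, had the smallest p (-0.19 per doubling of days, limma p = 0.0248, adjusted p = 0.355), and Pycr1, which makes proline, had 1.42 in HF5 against HFC (limma p = 0.0253, adjusted p = 1). On the titled arrays 5 of 23 were lower and 5 higher, beside 31.8% and 20.5% of all probes, with a median of -0.11 beside -0.30, so neither count lay clearly above the background. Gatm, which starts creatine synthesis, was lower by 3.83 on the log2 scale, and the arginine transporters Slc7a2 and Slc7a1 by 2.56 and 2.22, with Ddah2 (-1.72) and Aldh18a1 (-1.37). Pts (1.70), Agmat (1.69), Asl (1.15), Oaz1 (0.82) and Srm (0.73) were higher. On a titled array 17 to 24 of the 24 genes were well above background, and on 29 other arrays 15 to 24. A lower value of a gene near background cannot be told apart from the lower floor of the titled arrays. The sign of the median depended on the scaling, with 0.30 under normexp and -0.14 after quantile normalization.

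The genes of classical activation, the state that Nos2 marks, gave a count of the same kind. Of 21 genes, 20 were tested and 0 were called by diet, dose or time, and the smallest p values were in HF5 against HFC for Cxcl9 (-1.62, limma p = 0.00818, adjusted p = 1) and Cd38 (-1.33, limma p = 0.0107, adjusted p = 1). On the titled arrays 13 of 20 were lower and 0 higher, beside 31.8% and 20.5% of all probes, with a median of -1.72 beside -0.30. Il6 had -6.91, Il1b -5.52, Ptgs2 -4.72, Ifng -4.16, Fpr2 -3.99 and Tnf -2.86, and Cd80, Cxcl10, Irf5, Gpr18, Cd86, Il12a and Irf1 were lower as well. On a titled array 12 to 21 of the 21 genes were well above background, and on 29 other arrays 10 to 21. For genes near background, calls and sizes cannot be told apart from the lower floor of the titled arrays (median -6.06 against -3.01). Under normexp 14 were lower and 5 higher, beside 60.7 and 22.8% of all probes, after quantile normalization 8 were lower, beside 10.2%, and with the percentile over probes detected everywhere 16, beside 47.9%. The medians of the IL-4 and classical lists, -1.18 and -1.72, were negative under all 4 scalings, though after normexp that of the IL-4 list (-1.29) was not below that of all probes (-1.30).

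The genes most like Arg1, Nos2, Retnla and Chi3l3 were found among 24675 genes by Pearson correlation over at least 30 shared arrays, as a description. For Retnla they were Cd209b (r = 0.791), Dact2, Smpd3, Cd209d and Ear11 (r = 0.761), of which Cd209b and Cd209d are lectins of the DC-SIGN family and Ear11 is a ribonuclease of the eosinophil-associated family. For Chi3l3 they were S100a8 (r = 0.858), a calcium-binding protein abundant in neutrophils, Chi3l4 (r = 0.856), Gm9733, Sirpb1 and Slfn4 (r = 0.846). For Arg1 they were BC064033 (r = 0.832), Tcfec, Serpinb2, Hoxc9 and Sva (r = 0.806), each well above background on at most 15 arrays. For Nos2 they were V2r1b (r = 0.880), Gm8050, Tas2r125, LOC100044338 and LOC100042042 (r = 0.845), among them vomeronasal and taste receptor genes seen above background on at most 12 arrays. The points share the array's floor and its title.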

How the data were processed

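RNA was measured on 39 Agilent arrays of 1 colour. The intensity of each spot, already less its background, was read from the deposited scanner files, which Feature Extraction 10.5.1.1 wrote per the file headers (the submitters' notes name 9.1). The deposited series table holds log2 values relative to 1 array of a time label (the LFC array at 9 labels, the HFC array at Day 14, and not settled at Week 6), and was used only for gene symbols and a check of labels.

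Log2 intensity was taken, and the 75th percentile of each array was subtracted. That percentile was taken over all spots other than controls, outlier-marked ones included. Outlier-marked spots were then dropped, and spots of a probe were averaged. Groups came from the source names of the samples, and for the LFC Day 1 array from its diet label. The HF20 Week 12 array was therefore kept as HF20 despite its diet label. Probes well above background on at least 6 arrays were fitted with limma 3.58.1 (R 4.3.3, statmod 1.5.0), with diet and time label as terms and Benjamini-Hochberg adjustment over 34043 probes, two-sided. Permutation tests were two-sided. The number of arrays limits the precision. Nothing in the labels shows that arrays of 1 diet came from separate mice beyond their time labels, so p-values measure the spread between arrays.

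The members and gene lists were chosen with earlier results of these data known. Named were all members, the genes of each list past the threshold, or else the pair with the smallest p per list over the contrasts, and the 5 genes most like Arg1, Nos2 and Retnla. Chi3l3 was added to these after its values were seen. Bounds compare the brighter array with the higher of the dim array's floor and its own value. Tested on simulated data of 9136 probes, the HFC against LFC fit recovered 81% of changes of 2 and 98% of changes of 4 (log2). The simulation took only probes with a value on every array, so of the members only Retnla, Chi3l3 and Clec10a could enter it. Its noise was independent, with no effect of time, scan date or title. The SE in this fit reached 1.18 in Arg2 and 0.94 in Chi3l3, so these shares do not say what was detectable in the members. Alternatives covered background correction, scaling, filters, blocks, array weights and arrays or labels left out.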

Additional observations from a re-analysis of the deposited data

Results flagged for a closer look

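Of 40 groups formed by a gene and a diet other than HFC, 2 held an array far from the other 5 of its group, and chance alone would give about 5% of groups. The HFC groups were not checked. Il4ra, the IL-4 receptor chain, was at -1.32 on the HF75 Week 15 array, where the nearest other HF75 array was at 0.67 (gap over range 0.641, n = 6). The array is titled BA or BAT. Stat6 was at -1.62 on the HF5 Week 12 array, where the nearest other HF5 array was at 0.43 (gap over range 0.789, n = 6), and 18.6% of the spots of this array were marked as outliers.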

How the results depend on the processing

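None of the 9 tested genes was called in a diet, dose, time or early against late contrast under any alternative run. Nos2 did not pass the filter on dim probes, and in the run without that filter it was not called in these contrasts. The probe counts there, 0 in each, rose for HFC against LFC to 2 with quantile normalization, 1 with the percentile over probes detected on all arrays, 15 with array weights, 2 without the 9 titled arrays, 1 without HF20 Week 12 and 4 with the title token added, and ran from 0 to 1 with a label left out. For HF20 against HFC array weights gave 1, for HF75 against HFC the fit without titled arrays gave 3 and that with the token 1, and for dose array weights gave 1, the token 74 and labels left out 0 to 7 (7 without Week 15). For time, quantile normalization gave 4, the filter at 20 arrays 5, the floor 1, array weights 146 and labels left out 0 to 1. The title count of 17828 became 28430 with normexp, 11125 with quantile normalization, 11478 with the filter at 20 arrays and 10067 (without Week 12) to 20348 (without Day 1) with labels left out, and 17305 without LFC Day 10 and HFC Week 12. With a label left out the members called by title ran from 4 (without Week 9) to 8, with 7 without Week 12 and 6 without Week 18.

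HFC minus LFC reversed in sign for Arg1 with normexp (-0.25), for Retnla (-0.23) and Chi3l3 (-0.15) with array weights and (-0.053 and -0.25) without LFC Day 10 and HFC Week 12, and for Il10 with normexp (-0.14) and without titled arrays (-0.020), none of them called. With a label left out, Retnla ran from -0.081 to 0.68, Chi3l3 from -0.13 to 0.91, Il10 from -0.067 to 1.20 and Arg1 from 0.46 to 1.71. Stat6 by title gave -0.46 with the percentile over detected probes (adjusted p = 0.0406), -0.010 with the slide as a block, -0.12 without arrays over 10% marked, -0.72 as the mean of its probes (adjusted p = 0.0304), 0.50 with normexp (adjusted p = 0.016) and -0.090 to 0.12 with labels left out. Without Week 9 the title calls of Chi3l3 (-1.79, adjusted p = 0.113), Mgl2 (-1.07, 0.0533), Clec10a (-0.96, 0.168) and Il4ra (-1.22, 0.0597) were lost, without Week 12 that of Clec10a (-1.16, 0.073), and without Week 18 those of Chi3l3 (-2.20, 0.0562) and Clec10a (-1.23, 0.0513). The Arg1 minus Nos2 mean of 1.17 was 0.35 with normexp, 0.64 with the floor, 0.93 without LFC Day 10 and HFC Week 12 and 1.25 with the Day 14 labels exchanged. The cause of these shifts was not tested.

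The fit with no replicate block, that is without the time label, changed no call of a gene. The methods' t-test, over arrays of different time labels, called 0 probes in the 4 diet contrasts after Benjamini-Hochberg adjustment (1284, 1539, 1759 and 2131 at an unadjusted p under 0.05) and 16617 by title. The slide block could not be fitted for time and early against late. The fits without LFC Day 10 and HFC Week 12, with the token, with Day 14 exchanged and within labels of both titles, and the genes most like Chi3l3, were chosen after seeing the data. With 1 array per diet and time label and most Arg1, Arg2, Nos2 and Il10 values near background, small differences were not detectable.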
